A study of Mus musculus with 8 samples.

Results

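Inorganic phosphate is filtered by the kidney and taken back in the proximal tubule by sodium-phosphate cotransporters, and the bone hormone FGF23 and parathyroid hormone lower that uptake. FGF23 acts through FGF receptors with klotho as co-receptor, and it also lowers the synthesis of active vitamin D, which binds the vitamin D receptor and in turn raises its own breakdown. The 10 genes described here make up this loop as the kidney expresses it: the cotransporters Slc34a1, Slc34a3, Slc20a1 and Slc20a2, the scaffold gene Slc9a3r1, Kl and Fgfr1, the vitamin D enzymes Cyp27b1 and Cyp24a1, and Vdr. They were chosen by name from what is known of the pathway, out of 18217 named genes with a probe, with earlier results of these data known. Each probe was named through its transcript accession. All 10 genes were tested, and all were well above background on all 8 arrays. They are covered by 14 probes, with 1 probe for 7 genes, 2 probes for 2 genes and 3 probes for 1 gene.

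Total RNA of whole kidneys from 8 mice, each 8 weeks old, was labelled with Cy3 and put on 1-colour Agilent oligonucleotide arrays, 1 array for each mouse. The 4 NEKO mice (Keap1-/-::Nrf2Flox/Flox::K5-Cre) lack Keap1, the protein that holds the transcription factor Nrf2 in check, in all tissues. The Cre that deletes their floxed Nrf2 is driven by the K5 promoter, which is active in squamous epithelium, so the kidney is meant to keep its Nrf2. The 4 littermate controls were all Keap1+/-::Nrf2Flox/Flox. Of these, 3 carried K5-Cre (K1Cre) and 1, a female, did not (K1). Each group held 2 females and 2 males, the strain background was a mixture of 129Sv/J and C57BL/6J, and every mouse in both groups had the floxed Nrf2 alleles.

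Mice are named by group and by the running number in their labels. A level is the log2 signal less its array's 75th percentile over non-control probes, and levels compare mice for 1 probe, not different probes. The groups were tested in a limma model that includes sex, with Benjamini-Hochberg adjustment over 19593 features, of which 13570 were named genes, and an adjusted p under 0.05 is named a call. All females were on 1 slide and all males on another, so the effects of sex and slide cannot be told apart. In whole-kidney RNA, fewer cells of a type and less RNA per cell cannot be told apart either.

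The labels were checked on the targeted gene and on Nrf2 targets. Keap1 was between 1.77 and 1.92 in the controls and between 0.06 and 0.45 in NEKO mice, a log2 difference of -1.63 (limma SE 0.10, adjusted p = 0.005). Nqo1, a classical Nrf2 target, had a log2 difference of 2.62 with groups that did not overlap, but missed the threshold (limma adjusted p = 0.065). Gclc, another such target, gave 0.95 with groups that overlapped (limma adjusted p = 0.246), since control mouse 8 was at 5.55, within the NEKO range of 5.07 to 5.75, and the other controls were between 3.87 and 4.35. Leaving out control mouse 8 gave the highest Gclc difference, 1.34, and the lowest over the mice was 0.73. Markers of the proximal tubule, the segment that reabsorbs phosphate, were well above background in every mouse. The mean level of 9 such genes was between 4.77 and 4.95 in controls and between 4.86 and 4.99 in NEKO mice.

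None of the 10 genes passed the threshold in either direction. Over all features tested, 0.097% were called higher and 0.128% lower in NEKO kidneys, so few calls were made anywhere on these arrays. At an unadjusted limma p under 0.05, 2 of the 10 genes were lower (Slc34a3 and Kl) against 10.6% of all features, and 0 were higher against 7.37%. For the same 2 genes the 4 NEKO values did not overlap the 4 control values, with NEKO lower, as held for 5.36% of all features, and no gene had all NEKO values above all control values (3.89% of all features). The comparison that the study's methods name, unpaired with unequal variances, put the same 2 genes under an unadjusted p of 0.05, against 11.3% of all features. For the interaction of sex and genotype, 0 of the 10 were under an unadjusted p of 0.05, against 10.5%, and 0 were called, against 0.0153%. NEKO means were higher for 6 genes and lower for 4. The median log2 difference was 0.06 over the 10 genes and -0.03 over all features, and the median size of the difference was 0.21 and 0.15.

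**Figure D1:**
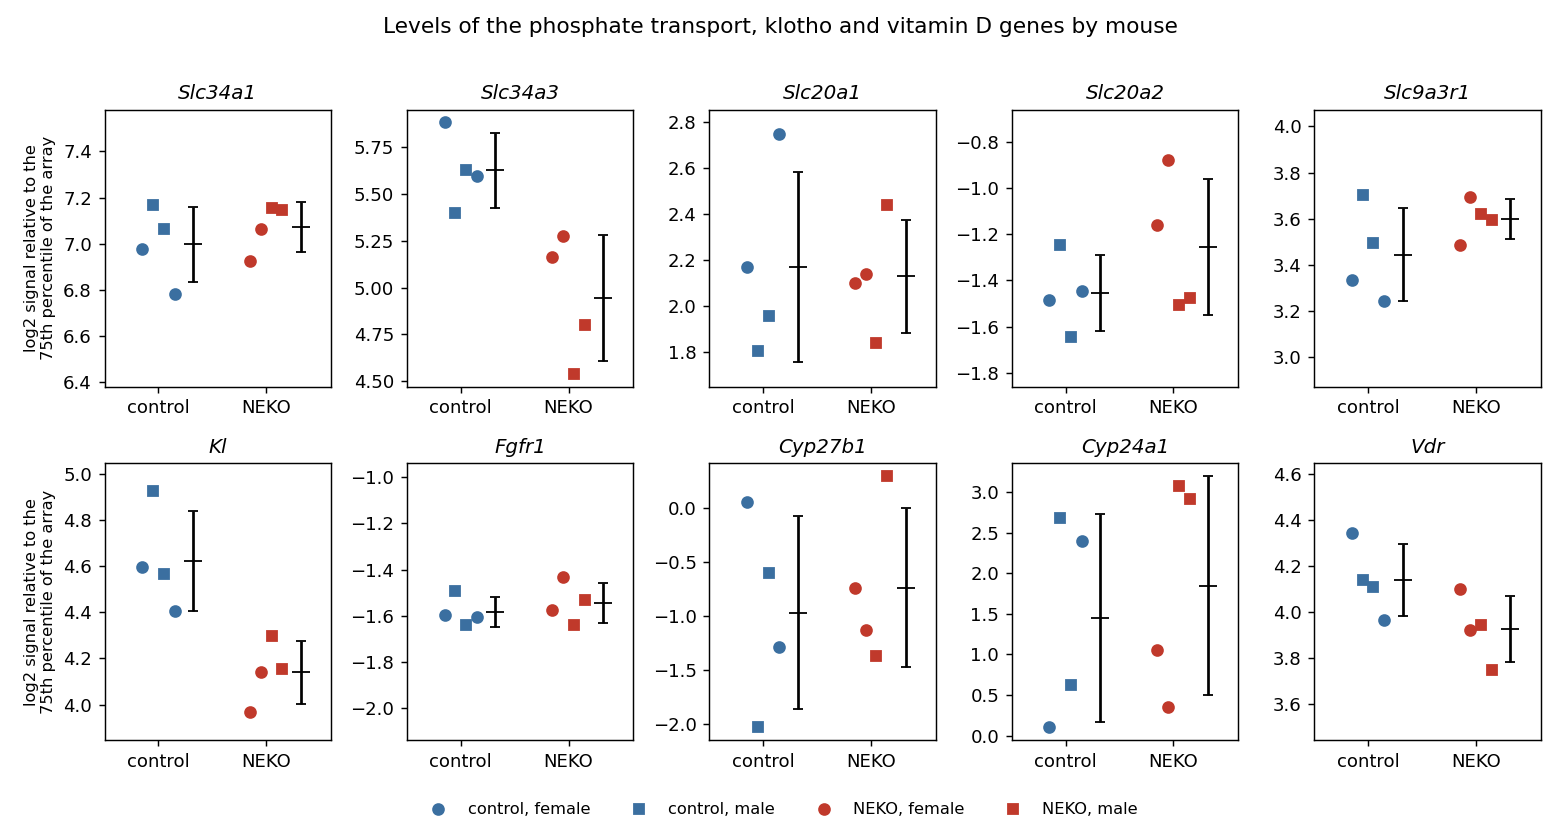
Levels of the 10 genes in each mouse, as log2 signal less the 75th percentile of each array, with females as circles, males as squares, and mean and SD of 4 mice as a black bar. Only for Slc34a3 and Kl do all NEKO points lie below all control points, and each panel has its own axis.

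Slc34a1 encodes the main sodium-phosphate cotransporter of the proximal tubule brush border. Its level was 6.98, 7.17, 7.06 and 6.78 in control mice 1, 4, 7 and 8, and 6.92, 7.06, 7.16 and 7.14 in NEKO mice 2, 3, 5 and 6. The groups overlapped, and the males of both groups lay at or above their females. The log2 difference was 0.08 (limma SE 0.08, 95% interval -0.11 to 0.26, adjusted p = 0.63). Over 25 other ways of processing or selecting the arrays the difference ran from 0.03 to 0.15.

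Slc34a3 encodes the second cotransporter of the same membrane, the one altered in hereditary hypophosphataemic rickets with hypercalciuria. Its level was 5.88, 5.40, 5.63 and 5.60 in control mice 1, 4, 7 and 8. In NEKO mice 2, 3, 5 and 6 it was 5.16, 5.28, 4.54 and 4.80. Every NEKO mouse lay below every control mouse, and the NEKO males were the lowest. The means were 5.63 ± 0.20 (SD, n = 4) in controls and 4.94 ± 0.34 (SD, n = 4) in NEKO mice, so that the NEKO level was 62.3% of the control level. The log2 difference was -0.68 (limma SE 0.12, 95% interval -0.97 to -0.39), and its adjusted p of 0.075 missed the threshold. A two-sided exact permutation test of 4 mice against 4 gave p = 0.0286, the smallest that 70 splits allow. Groups of 4 that do not overlap always give this value, so it adds nothing to the lack of overlap. The difference was -0.52 in females and -0.84 in males, and the interaction of sex and genotype did not pass (limma adjusted p = 0.70). Without control mouse 1, the control that lacks K5-Cre, it was -0.66. With a normexp background correction the adjusted p was 0.046, and in the model averaged over the sexes it was 0.041, both from limma and both under the threshold. These settings also made more calls over all named genes, 56 higher and 82 lower with normexp and 206 higher and 208 lower in the averaged model, against 15 and 23. Over all alternatives with adjustment the adjusted p of Slc34a3 ran up to 0.39.

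Marker genes of the proximal tubule were read beside Slc34a3. Of the 9 markers, 0 were called, and their median log2 difference was 0.01. At an unadjusted limma p under 0.05, 2 were higher, against 7.37% of all features, and 1 was lower, against 10.6%. The lower one was Slc5a2, the glucose transporter of the early proximal tubule, at -0.43 with groups that did not overlap (limma adjusted p = 0.12). The higher ones were Slc22a6 at 0.34 (limma adjusted p = 0.158) and Slc22a8 at 0.82 (limma adjusted p = 0.204), and both carry organic anions. The Slc22a8 groups did not overlap on its brightest probe but overlapped on its dimmer probes. There NEKO mouse 5 was at 1.21 against -0.06 to 1.31 in controls, and at -0.63 against -2.08 to -0.45. The part of these genes in the Slc34a3 difference was not tested.

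Upstream letters are shown for Slc34a3 and Kl because these are the genes whose groups did not overlap. RefSeq promoter entries (GRCm38.p6) matched 7 of the 10 genes, all but Slc20a2, Fgfr1 and Cyp24a1. The 250 bases before each start were searched on both strands for AGGTCA, the hexamer that nuclear receptors such as the vitamin D receptor recognise, and for TGACNNNGC, the core of the element bound by Nrf2. AGGTCA was present in 14.0% of the 32851 promoters of the table and in 2 of the 7 genes, Slc34a3 and Slc20a1. TGACNNNGC was present in 10.2% of all promoters and in 1 of the 7, Slc20a1. That match lies in an entry for another start of Slc20a1 and not in the 250 bases upstream of all its starts. The percentages count promoter entries, whereas a gene with more than 1 entry was counted when any of its entries matched. The stretch of Slc34a3 below is at chr2:25234243-25234272 on the minus strand, from 38 to 9 bases before the listed start, with the hexamer in capitals. A further hexamer on the opposite strand begins 6 bases before that start. Only this stretch is printed because another transcript of Slc34a3 starts within the searched window, whose far end also reaches into the neighbouring gene Rnf224. Both hexamers and nearly all of the printed stretch lie after the start of that transcript. In the 214 searched bases upstream of every Slc34a3 start neither motif occurs.
Slc34a3: atagcAGGTCAtgtgcgcacccgacagatc
Kl is shown with the 250 bases before its start, chr5:150952357-150952606 on the plus strand, in which neither motif occurs, so that no letter is in capitals.
Kl: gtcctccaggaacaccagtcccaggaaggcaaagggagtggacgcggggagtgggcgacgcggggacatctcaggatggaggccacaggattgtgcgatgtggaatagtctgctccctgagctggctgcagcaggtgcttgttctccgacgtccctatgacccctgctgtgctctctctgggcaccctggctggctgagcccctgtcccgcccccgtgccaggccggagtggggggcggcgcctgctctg
A match is a description of letters and says nothing of binding, and the lack of one says only that these letters are not in this window.

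Slc20a1 and Slc20a2 encode the type III cotransporters, which are expressed in most tissues. Slc20a1 was 2.17, 1.81, 1.96 and 2.75 in control mice 1, 4, 7 and 8, and 2.10, 2.14, 1.84 and 2.44 in NEKO mice 2, 3, 5 and 6. Control mouse 8 held the highest and control mouse 4 the lowest value, and the NEKO values lay between them. NEKO minus control came to -0.04 on the log2 scale (limma SE 0.20, adjusted p = 0.93). It was -0.34 in females and 0.26 in males, and its other probe gave 0.27 (limma adjusted p = 0.44), so no direction can be given for this gene.

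Slc20a2 was -1.49, -1.25, -1.64 and -1.45 in control mice 1, 4, 7 and 8, and -1.16, -0.88, -1.50 and -1.48 in NEKO mice 2, 3, 5 and 6. Both NEKO females were above all controls, whereas both NEKO males lay within the control range. The log2 difference was 0.20 (limma SE 0.14, adjusted p = 0.48), with 0.45 in females and -0.05 in males. The interaction was -0.49 and did not pass (limma adjusted p = 0.55). The second Slc20a2 probe gave 0.15. Leaving out 1 mouse moved the difference between 0.09, without NEKO mouse 3, and 0.33, without control mouse 4.

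Slc9a3r1 encodes NHERF1, the brush border protein that anchors the Slc34a1 product in the membrane and on which parathyroid hormone acts. Its level was 3.34, 3.70, 3.50 and 3.24 in control mice 1, 4, 7 and 8, and 3.49, 3.70, 3.62 and 3.59 in NEKO mice 2, 3, 5 and 6. The groups overlapped and the NEKO values were the closer together. On the log2 scale the difference was 0.16 (limma SE 0.10, adjusted p = 0.44), with 0.30 in females and 0.01 in males.

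Kl encodes klotho, the co-receptor that gives FGF23 its action on the kidney, and it is expressed most strongly in the distal convoluted tubule. Its level was 4.60, 4.92, 4.57 and 4.41 in control mice 1, 4, 7 and 8. In NEKO mice 2, 3, 5 and 6 it was 3.97, 4.14, 4.30 and 4.15. All NEKO mice lay below all controls, and the nearest pair was NEKO mouse 5 and control mouse 8. The means were 4.62 ± 0.22 (SD, n = 4) and 4.14 ± 0.14 (SD, n = 4), the NEKO level being 71.5% of the control level. The log2 difference was -0.48 (limma SE 0.11, 95% interval -0.74 to -0.23) and was not called (limma adjusted p = 0.112). The two-sided exact permutation p was 0.0286, which again only restates the lack of overlap. Females gave -0.45 and males -0.52, an interaction of -0.07 (limma adjusted p = 0.95). Leaving out each mouse in turn moved the difference between -0.55 and -0.41.

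The markers of the distal convoluted tubule were read beside Kl. The mean level of the 5 genes was 1.69, 1.07, 1.45 and 1.46 in control mice 1, 4, 7 and 8, and 1.09, 1.59, 0.41 and 0.48 in NEKO mice 2, 3, 5 and 6. The 2 NEKO males were the lowest of all and the NEKO females were within the control range. No marker was called. At an unadjusted limma p under 0.05, 3 of the 5 were lower, against 10.6% of all features, and 0 were higher, against 7.37%. The 3 lower ones were Slc12a3, the thiazide-sensitive cotransporter, at -0.57, Pvalb at -1.13 and Trpm6, a magnesium channel, at -0.81 on the log2 scale. Each had overlapping groups. The median of the 5 was -0.24 in females and -0.91 in males. The part of this segment in the Kl difference was not tested.

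**Figure D2:**
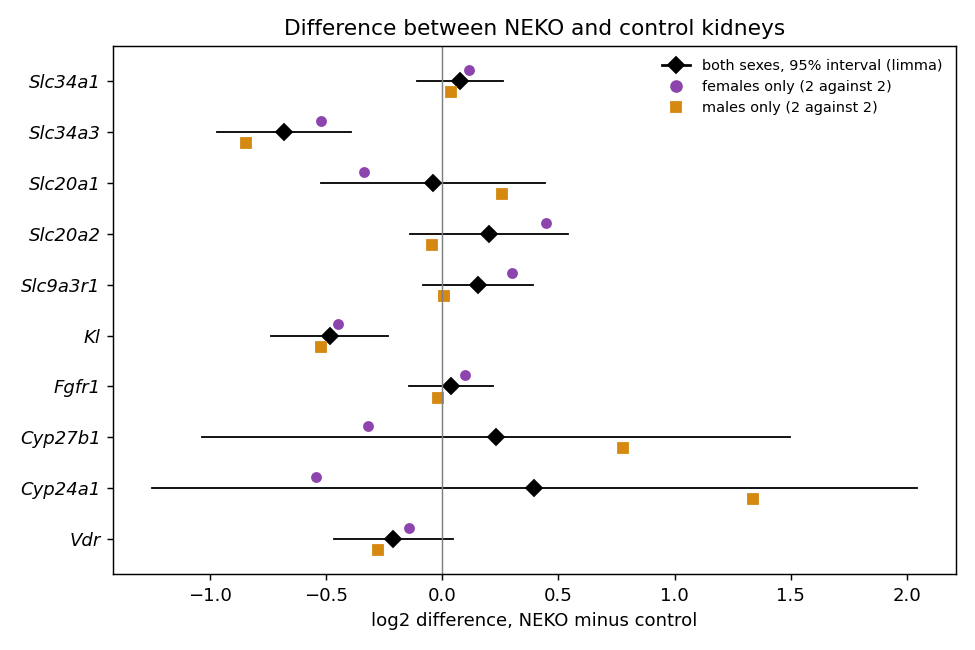
Log2 difference between NEKO and control kidneys for each of the 10 genes, with the limma estimate over both sexes as a diamond, its 95% interval as a line, and the differences within females and within males as a circle and a square. The intervals of Slc34a3 and Kl lie below 0 and those of Cyp27b1 and Cyp24a1 are the widest.

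Fgfr1 encodes the receptor that forms the main klotho complex for FGF23. On its brightest probe it was -1.60, -1.49, -1.64 and -1.60 in control mice 1, 4, 7 and 8, and -1.57, -1.43, -1.64 and -1.53 in NEKO mice 2, 3, 5 and 6. These values span a narrow range in both groups. NEKO minus control came to 0.04 on the log2 scale (limma SE 0.08, adjusted p = 0.81). The 2 dimmer probes of the gene differed in the other direction, by -0.17 and -0.31, and on the latter the groups did not overlap (limma adjusted p = 0.159 over 26026 kept probes). No direction can therefore be given for Fgfr1.

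Cyp27b1 encodes the hydroxylase that makes active vitamin D, and Cyp24a1 the one that breaks it down. The spread between mice was large for both. The residual SD of Cyp27b1 in the model was above that of 97.7% of the features tested and that of Cyp24a1 above 99.1%.

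Cyp27b1 was 0.05, -2.04, -0.61 and -1.29 in control mice 1, 4, 7 and 8, and -0.75, -1.13, -1.38 and 0.29 in NEKO mice 2, 3, 5 and 6. The highest value was from NEKO mouse 6 and the lowest from control mouse 4, both males. Controls spanned a 4.24-fold range and NEKO mice a 3.18-fold range. The estimated log2 difference was 0.23 (limma SE 0.54, 95% interval -1.04 to 1.50, adjusted p = 0.84). It turned to -0.16 without control mouse 4 and to -0.21 without NEKO mouse 6, so the sign rests on these mice.

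Cyp24a1 was 0.10, 2.69, 0.62 and 2.40 in control mice 1, 4, 7 and 8, and 1.05, 0.36, 3.07 and 2.91 in NEKO mice 2, 3, 5 and 6. In each group 2 mice were at 2.40 or above and 2 at 1.05 or below. The high mice were a male and a female among the controls but both males among the NEKO mice, with means of 0.71 in NEKO females and 2.99 in NEKO males. The log2 difference over both sexes was 0.40 (limma SE 0.70, 95% interval -1.25 to 2.05, adjusted p = 0.78), and without control mouse 7 it was -0.20. The interaction of sex and genotype was 1.88 and was not called (limma adjusted p = 0.69). In fold terms these 95% intervals ran from 0.49 to 2.82 for Cyp27b1 and from 0.42 to 4.13 for Cyp24a1. Intervals this wide leave both a fall and a rise of that size possible.

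**Figure D3:**
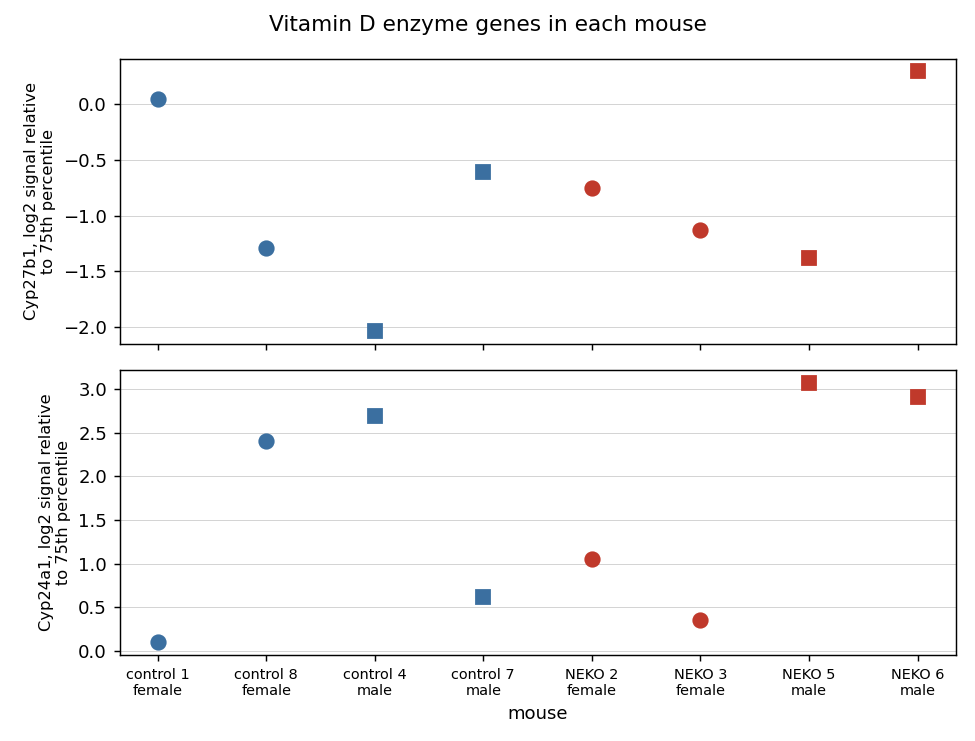
Levels of Cyp27b1 (top) and Cyp24a1 (bottom) in each of the 8 mice, as log2 signal less the 75th percentile of each array, with controls in blue, NEKO mice in red, females as circles and males as squares. Cyp24a1 was at 2.40 or above in control mice 4 and 8 and NEKO mice 5 and 6 and at 1.05 or below in the other mice.

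Vdr encodes the receptor for active vitamin D. Its level was 4.34, 4.14, 4.11 and 3.97 in control mice 1, 4, 7 and 8, and 4.10, 3.92, 3.95 and 3.75 in NEKO mice 2, 3, 5 and 6. The groups overlapped in that NEKO mouse 2 lay above control mouse 8. On the log2 scale the difference was -0.21 (limma SE 0.11, 95% interval -0.47 to 0.05, adjusted p = 0.35), and the two-sided exact permutation p was 0.0571. It was -0.14 in females and -0.28 in males.

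**Figure D4:**
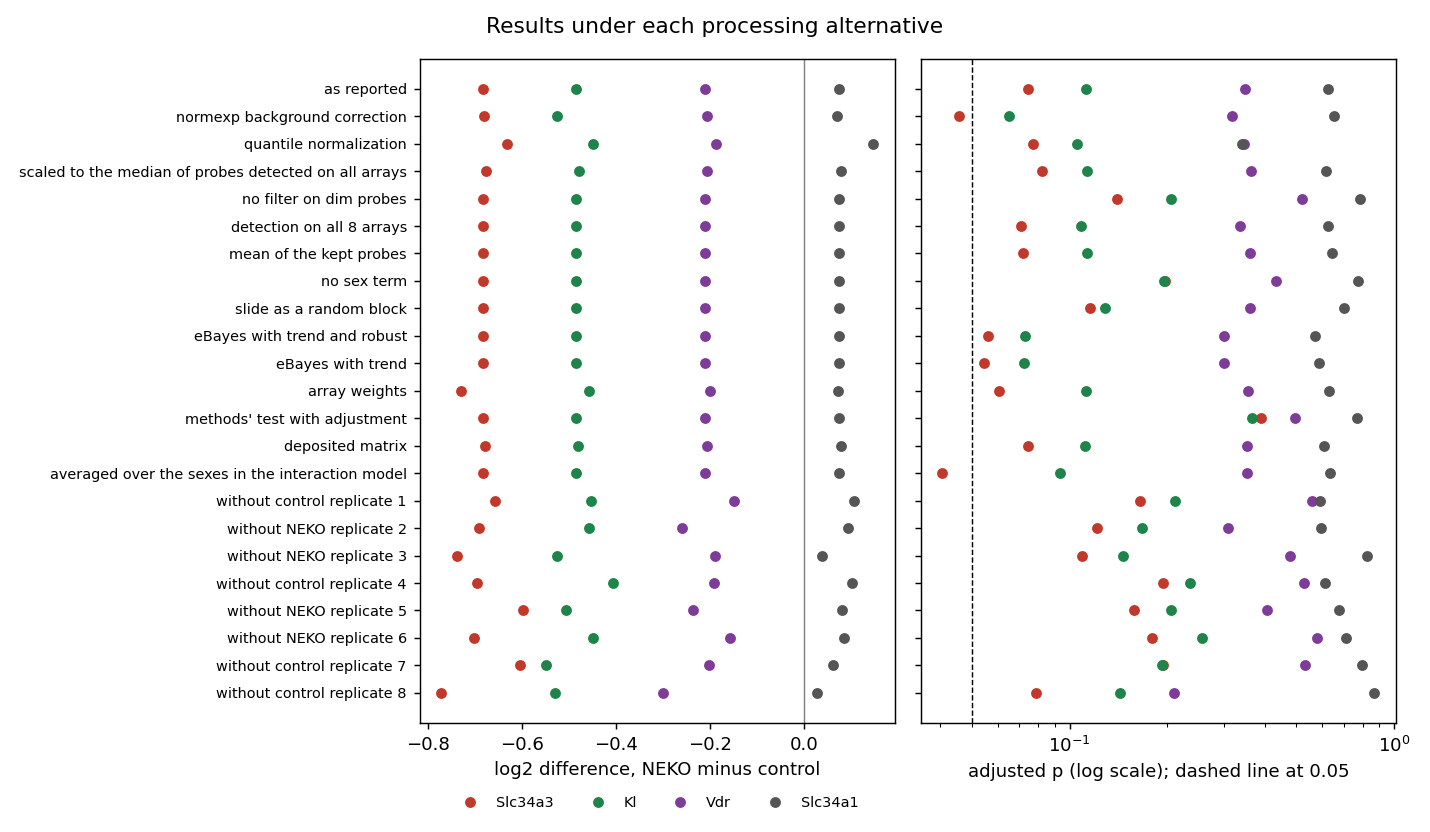
Log2 difference between NEKO and control kidneys (left) and adjusted p on a log axis (right) of Slc34a3, Kl, Vdr and Slc34a1 under each way of processing the arrays and with each mouse left out. The estimates stay on their side of 0 throughout, and Slc34a3 passes the dashed line at 0.05 under 2 alternatives.

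The other genes of these pathways were described by 5 lists, and 0 genes were called in any of them. In each list the 3 genes with the lowest adjusted p are given below. The counts at an unadjusted limma p under 0.05 stand beside 7.37% of all features higher and 10.6% lower.

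Of 12 other genes of phosphate handling, 1 was higher and 3 were lower at an unadjusted limma p under 0.05, and the median log2 difference was 0.00. Slc34a2, the cotransporter of lung and intestine, was near the background in the kidney and well above it on 7 of 8 arrays. Its level was -4.56, -3.93, -4.61 and -4.00 in control mice 1, 4, 7 and 8, and -4.69, -4.72, -4.85 and -5.82 in NEKO mice 2, 3, 5 and 6. The groups did not overlap, and the log2 difference was -0.75 (limma adjusted p = 0.237) and -0.49 without NEKO mouse 6. With a normexp background correction it was -0.19 (limma adjusted p = 0.345). Slc17a4, an organic anion carrier of the same family as the type I phosphate transporters, differed by -0.54 with overlapping groups (limma adjusted p = 0.215). On its brightest probe Nt5e, which releases phosphate from extracellular AMP, differed by -0.57 (limma adjusted p = 0.21). It gave -0.13 in females and, in males, a mean level of 2.87 in controls and 1.86 in NEKO mice. On its dimmer probe the NEKO females were at -4.12 and -3.38 against -4.16 and -3.98 in control females. The NEKO males there were at -4.11 and -4.04 against -2.69 and -3.32 in control males. No direction can therefore be given for Nt5e in females. Xpr1, the phosphate exporter, gave 0.17 on its brightest probe (limma adjusted p = 0.289). On its dimmer probes the groups overlapped and the NEKO mean was slightly below the control mean. No direction can therefore be given for Xpr1.

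Of 20 genes of FGF receptor signalling, 15 were tested. Fgf23, Klb, Phex and Dmp1 were not well above background on enough arrays, and Dusp5 had no probe that was named. At an unadjusted limma p under 0.05, 3 were higher and 0 lower, and the list median was 0.09. These 3 were Fgfr2, Fgfr3 and Frs2. The receptor genes Fgfr4, of the same list, and Fgfr1 were not under that p. On its brightest probe Fgfr2 was -1.76, -1.93, -1.77 and -1.66 in control mice 1, 4, 7 and 8, and -1.34, -1.16, -1.36 and -1.67 in NEKO mice 2, 3, 5 and 6. Only NEKO mouse 6 lay in the control range there. The log2 difference of Fgfr2 was 0.40 (limma adjusted p = 0.139). On a dimmer Fgfr2 probe NEKO mouse 5 was at -3.98 and NEKO mouse 6 at -4.30, against -4.26 to -3.96 in controls. On its brightest probe Fgfr3 ran from 0.35 to 0.52 in controls and from 0.54 to 0.98 in NEKO mice without overlap. Its log2 difference was 0.37 (limma adjusted p = 0.165). On the dimmer Fgfr3 probes the groups overlapped. There NEKO mouse 5 was at -0.28 against -0.38 to -0.22 in controls, and at -4.08 against -4.30 to -3.74. Frs2, the docking protein of these receptors, ran from 1.36 to 1.52 in controls and from 1.56 to 1.71 in NEKO mice, a log2 difference of 0.17 (limma adjusted p = 0.27). The 9 genes of the list that FGF signalling induces, feedback inhibitors included, had estimates on both sides of 0 and none passed. Dusp6 gave 0.07, Spry1 0.20, Spry2 0.15, Etv1 0.09, Etv5 0.07 and Egr1 0.15 on the log2 scale, and Spred1 gave -0.38, Etv4 -0.35 and Spry4 -0.26.

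Of 14 genes of parathyroid hormone signalling and the brush border scaffold, 0 passed even at an unadjusted limma p under 0.05, and the median log2 difference was 0.02. Prkar1a, a regulatory subunit of protein kinase A, gave 0.19 (limma adjusted p = 0.293). Ezr, which links the scaffold to actin, gave -0.16 (limma adjusted p = 0.295), and Pth1r, the parathyroid hormone receptor, gave -0.14 (limma adjusted p = 0.333). Pdzk1, a partner of NHERF1 in the brush border, gave -0.02.

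Of 16 genes of vitamin D supply and of the partners of its receptor, 0 were higher and 2 lower at an unadjusted limma p under 0.05, with a median of -0.09. Fdxr, which passes electrons to the mitochondrial vitamin D hydroxylases, was 1.26, 1.06, 1.03 and 1.01 in control mice 1, 4, 7 and 8, and 0.98, 0.81, 0.80 and 0.59 in NEKO mice 2, 3, 5 and 6, which do not overlap. Its log2 difference was -0.29 (limma adjusted p = 0.196). Ncoa1, a coactivator of nuclear receptors, also differed by -0.29 without overlap (limma adjusted p = 0.195). Gc, the plasma carrier of vitamin D, had the highest estimate of the list at 1.06 (limma adjusted p = 0.295), but control mouse 4 alone was at 0.66 while the other mice ran from 2.15 to 4.28. Lrp2 and Cubn, the receptors that take up the carrier, gave 0.02 and 0.14, and Rxra, the partner of the vitamin D receptor, gave 0.18. The Lrp2 value is from its brightest probe, and on each dimmer probe the NEKO mean was higher with overlapping groups. The widest gap was on a probe at 0.86 to 1.42 in controls and 1.41 to 2.02 in NEKO mice.

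The 6 vitamin D responsive genes of calcium transport had estimates in both directions, with 1 higher and 2 lower at an unadjusted limma p under 0.05 and a median of -0.03. Slc8a1, the sodium-calcium exchanger, was 1.47, 0.93, 0.96 and 0.96 in control mice 1, 4, 7 and 8, and 0.37, 0.78, -0.42 and -0.33 in NEKO mice 2, 3, 5 and 6. On this brightest probe all NEKO mice lay below all controls, with the NEKO males lowest. Its log2 difference was -0.98 (limma SE 0.19, adjusted p = 0.083), and -0.94 without control mouse 1. The groups also separated on a dimmer probe of Slc8a1 but overlapped on the remaining ones. There NEKO mouse 3 was at -1.17 against -2.07 to -1.29 in controls, and at -3.00 against -3.73 to -2.96. S100g, a calcium-binding protein, was 6.97, 6.49, 6.71 and 6.63 in control mice 1, 4, 7 and 8, and 6.28, 6.31, 5.19 and 5.94 in NEKO mice 2, 3, 5 and 6, again without overlap. Its log2 difference was -0.77 (limma SE 0.20, adjusted p = 0.142). Trpv6, a calcium channel, gave 0.74 (limma adjusted p = 0.25), with 0.06 in females and 1.41 in males. Calb1, which is both a vitamin D responsive gene and a distal tubule marker, gave 0.01, and Trpv5, the calcium channel of the same segment, gave -0.07. Slc8a1, S100g and Calb1 are expressed in the distal tubule, whose mean marker level was lowest in the NEKO males, and the part of those cells in these differences was not tested.

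**Figure D5:**
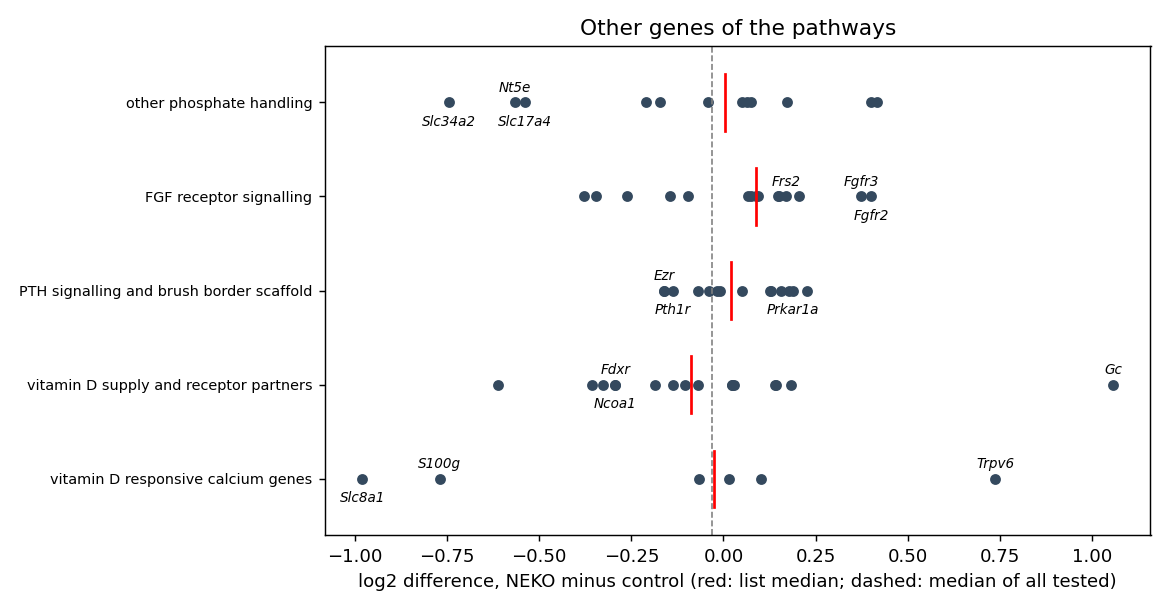
Log2 difference between NEKO and control kidneys for each tested gene of the 5 pathway lists, with the list median as a red line, the median of all 19593 features as a dashed line, and the 3 genes of lowest adjusted p in each list named. The widest scatter is in the vitamin D lists, from Slc8a1 at -0.98 to Gc at 1.06, and the parathyroid hormone list lies within -0.16 and 0.23.

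Markers of other cells are given by sex where the sexes differ. The mean level of the 7 fibroblast markers was 2.10 and 2.67 in the NEKO males, 1.62 and 1.43 in the NEKO females and between 0.87 and 1.82 in the controls. The 7 fibroblast genes had a median log2 difference of -0.28 in females and 1.40 in males. For the interaction 6 of the 7 had an unadjusted limma p under 0.05, against 10.5% of all features, with 0 called. These genes were read in the same mice and are not separate observations. The 7 macrophage markers tested had a median of 0.03, with a mean level between -1.56 and -1.09 in controls and between -1.64 and -0.47 in NEKO mice, the highest in NEKO mouse 6. The 4 lymphocyte markers tested had mean levels between -4.45 and -4.08 in controls and between -4.57 and -3.55 in NEKO mice. The 4 endothelial markers had a median of 0.17. The 6 tubular injury genes had a median of 0.42, and their mean level was between -1.94 and -1.24 in controls and between -1.30 and -0.79 in NEKO mice, highest in the NEKO males. None of these markers was called. The males of both groups differ from the females in slide as well as sex, and the part of these cells in the levels of the phosphate, klotho and vitamin D genes was not tested.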

How the data were processed

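Kidney RNA of 4 NEKO and 4 control mice was measured on 8 Agilent 1-colour arrays. The authors deposited Feature Extraction 10.7.3.1 output, with a background-subtracted processed intensity per spot that is not normalized between arrays, and a matrix of log2 values relative to the 75th percentile, centred per probe. In this work 100% of the deposited log2 values lay within 0.01 of the recomputed ones. Outlier spots were left out (73 to 172 of 43379 non-control spots an array), spots of 1 probe were averaged, and log2 signals were set relative to the 75th percentile of non-control probes. A probe was kept with 4 or more of 8 arrays well above background and with 6 or more values (61.7% to 65.7% of probes were well above background per array, and 0 were saturated). The number of arrays limits the precision. For each gene the brightest of these probes was taken. Accessions named 26690 of 41174 probes through RefSeq (GRCm38.p6), and the array annotation is on another build, so no probe coordinates are given.

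Genotype was tested in limma 3.58.1 (R 4.3.3; lmFit, eBayes) with sex as covariate, its interaction in a second model, with Benjamini-Hochberg adjustment over 13570 named genes and 6023 unnamed transcripts. The fit was tested on simulated data. The methods name an unpaired comparison with unequal variances for the study, and no test for arrays. Named genes are the 10 members, Keap1, Nqo1, Gclc, the 3 genes of lowest adjusted p in each list, and markers beside a member. Xpr1, Fgfr4, Pdzk1, Dusp6, Spry1, Spry2, Spry4, Spred1, Etv1, Etv4, Etv5, Egr1, Lrp2, Cubn, Rxra, Calb1 and Trpv5 are named outside it, for their roles and after their values were seen. The members and lists were chosen with earlier results of these data known. Alternatives were other background, scaling and filter settings, other models, the deposited matrix, each sex alone and leaving out each mouse. The other probes of a gene were added after seeing the data.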

Additional observations from a re-analysis of the deposited data

Results flagged for a closer look

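For each of the 50 genes with a value in the text, the mouse farthest from the rest of its group was compared with the range of that group, in 100 groups of 4 mice. By chance this marks about 1 group in 20, and 4 were marked. Slc34a2 in NEKO mice was marked (gap over range 0.863) because NEKO mouse 6 was at -5.82 and the other NEKO mice between -4.85 and -4.69. Slc8a1 in controls was marked (0.943) because control mouse 1, the female without K5-Cre, was at 1.47 and the other controls between 0.93 and 0.96. Nqo1 in controls was marked (0.91) because control mouse 4 was at 1.24 and the other controls between 2.35 and 2.46. Etv4, a transcription factor induced by FGF signalling, was marked in controls (0.835) because control mouse 7 was at -4.72 and the other controls between -4.21 and -4.11.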

How the results depend on the processing

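No paired analysis was possible because the labels do not give the litter of each mouse. None of the 10 genes was called higher under any alternative. With none called lower as reported, 1 (Slc34a3) was called with normexp, 2 (Slc34a3 and Kl) by the methods' comparison without adjustment, where 11.3% of all features passed, and 1 (Slc34a3) in the model averaged over the sexes. The adjusted p of Slc34a3 ran from 0.041 to 0.39 and that of Kl from 0.065 to 0.36. The sign of Slc20a1 turned to 0.11 with the mean of probes, 0.27 on its other probe, 0.03 without NEKO mouse 2, 0.01 without NEKO mouse 3, 0.02 without NEKO mouse 5 and 0.13 without control mouse 8, and leaving out each mouse spanned -0.22 to 0.13. That of Fgfr1 turned to -0.15 with the mean of probes, -0.17 and -0.31 on its other probes and -0.00080 without NEKO mouse 3 (-0.00080 to 0.080 over mice). That of Cyp27b1 turned to -0.16 without control mouse 4 and -0.21 without NEKO mouse 6 (-0.21 to 0.61 over mice), and that of Cyp24a1 to -0.20 without control mouse 7. Without control mouse 8, Cyp24a1 gave 1.04. Over all named genes, there were 15 higher and 23 lower calls, which became 56 and 82 with normexp, 6 and 12 with detection on all 8 arrays, 9 and 14 without the sex term, 34 and 42 with eBayes trend and robust, 43 and 49 with trend alone, 27 and 48 with array weights, 743 and 882 by the methods' comparison without adjustment, 0 and 1 with adjustment, and 206 and 208 averaged over the sexes. Leaving out each mouse gave 8 to 19 higher and 7 to 18 lower, with 8 higher calls without control mouse 4 or 7 or NEKO mouse 5 or 6, and 15 or fewer lower calls without any of these or control mouse 1 or 8. The cause of these changes was not tested. With 4 arrays a group, the exact permutation p cannot go below 0.0286.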
